A study of Mus musculus with 2 samples.

Results

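The miR-30 family was followed through the small RNA of mouse embryonic stem cells that lack Dicer, the enzyme that turns hairpin precursors into mature microRNAs (miRNAs). Its members were taken by name, as every entry called miR-30 followed by a letter from a to f, with either arm and any copy number. This gave 12 of the 1907 entries of the deposited count table. The 2 samples, library 1 and library 2 after the numbers in their titles, form a single group. Both are Dicer knockout cells on a 129/Ola background, labelled E14 for their developmental stage, grown on gelatine in medium with serum and LIF, and the descriptions name them C1 and H11. Nothing states whether they are separate clones, so the spread between them may be technical. Cells with Dicer were not analysed here, and no value below is a change caused by its loss.

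In normal biogenesis Drosha releases a stem-loop from the primary transcript, and Dicer removes its loop to leave a duplex of a 5p and a 3p arm. One arm is then kept by an Argonaute protein and pairs with target mRNAs mainly through its seed, bases 2 to 8. The miR-30 miRNAs are expressed in many tissues, and the hairpin of miR-30a is the scaffold of many vectors for short hairpin RNAs. Their known targets include the mRNA of the autophagy regulator Becn1.

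The mature sequences are shown because arms with the same seed would address the same targets and because near-identical arms are hard to tell apart in short reads. RefSeq (GRCm38.p6) gave a sequence for 8 of the 12 entries. The entries miR-30b-5p, miR-30b-3p, miR-30d-5p and miR-30d-3p are given by name only. Capitals mark the seed, and each sequence runs 5′ to 3′.
mmu-miR-30a-5p: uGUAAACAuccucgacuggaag
mmu-miR-30c-5p: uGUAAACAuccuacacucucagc
mmu-miR-30e-5p: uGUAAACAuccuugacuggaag
mmu-miR-30a-3p: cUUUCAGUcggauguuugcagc
mmu-miR-30e-3p: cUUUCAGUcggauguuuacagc
mmu-miR-30c-1-3p: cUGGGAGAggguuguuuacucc
mmu-miR-30c-2-3p: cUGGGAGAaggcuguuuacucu
mmu-miR-30f: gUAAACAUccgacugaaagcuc

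The 3 5p arms with a sequence shared the seed GUAAACA and their first 12 bases. With positions counted from 1 at the 5′ end, miR-30a-5p and miR-30e-5p differed by C13U alone. The arm miR-30c-5p differed from miR-30a-5p at 5 positions, C13A, G14C, G18C, G19U and A20C, and was 1 base longer, at 23 bases. The 3p arms fell into a pair with the seed UUUCAGU, miR-30a-3p and miR-30e-3p, which differed by G18A, and a pair with the seed UGGGAGA. In the latter pair miR-30c-1-3p differed from miR-30c-2-3p by G9A, U12C and C22U, all outside the seed. The entry miR-30f begins 1 base later than the 5p arms do, so its bases 2 to 8 read UAAACAU. Its hairpin is the strand opposite Mir30e. Outside the family, miR-384-5p shared the seed GUAAACA (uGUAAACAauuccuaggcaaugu) and miR-6958-5p the seed UGGGAGA (gUGGGAGAagaggcugcugugg), and neither had a count in either library.

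The hairpins stand in 3 places in the genome (GRCm38, the build that the submitters' processing notes give as mm10; positions from GENCODE M21). Mir30a is on the plus strand of chromosome 1, at 23272269 to 23272339, and overlaps no other annotated gene. It is followed 19.4 kb further on by Mir30c-2 at 23291701 to 23291784, in an exon of the long non-coding RNA Gm27028. Mir30c-1 at 120769534 to 120769622 and Mir30e at 120772606 to 120772697 lie 2.98 kb apart on chromosome 4, minus strand, in an intron of Nfyc, which encodes a subunit of the transcription factor NF-Y. Mir30f occupies the plus strand opposite Mir30e. Mir30b at 68337415 to 68337510 and Mir30d at 68341208 to 68341289 lie 3.70 kb apart on chromosome 15, minus strand, in exons of non-coding transcripts, Gm26621 for Mir30b and Gm37296 and Gm20732 for Mir30d. The hairpins of miR-30a and miR-30c are printed because 1 mature miRNA, miR-30c-5p, can come from both Mir30c-1 and Mir30c-2. Capitals mark the 5p and the 3p arm.
Mir30a: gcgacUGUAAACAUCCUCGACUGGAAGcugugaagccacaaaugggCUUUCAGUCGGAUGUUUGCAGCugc
Mir30c-1: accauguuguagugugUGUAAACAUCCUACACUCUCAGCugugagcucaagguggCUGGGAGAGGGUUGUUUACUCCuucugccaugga
Mir30c-2: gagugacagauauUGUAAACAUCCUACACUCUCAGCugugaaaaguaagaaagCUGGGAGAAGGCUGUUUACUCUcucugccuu
The arms are separated by 19 bases in Mir30a, 16 in Mir30c-1 and 17 in Mir30c-2, the stretch that Dicer normally removes.

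Library 1 held 45222 counts and library 2 held 37476, so 1 count stood for 22.1 or 26.7 CPM, the counts scaled to a table total of 1000000. Entries carrying the label's cell type were present: 14 of 22 entries on the list of stem cell miRNAs had counts, 1618 in library 1 (3.58%) and 1201 in library 2 (3.20%). These were almost wholly arms of the miR-290 to miR-295 cluster, while miR-302a-5p had 2 and 4 counts, miR-302d-5p had 2 and 0, and the other entries of miR-302 and miR-367 had none. Lists of muscle and liver miRNAs were at 0 in both libraries.

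Counts of the miR-30 family were found in both libraries, with 390 in library 1 and 219 in library 2. Its share of all counts was 0.862% in library 1, with a 95% Wilson interval of 0.781 to 0.952. In library 2 it came to 0.584% (0.512 to 0.667), and the libraries averaged 0.723% ± 0.197 (SD, n = 2). The table is dominated by a few entries numbered above 1000. Among the 843 entries numbered 1000 or below, which hold most long-known miRNAs, the family took 3.36% (3.04 to 3.70) in library 1 and 2.81% (2.47 to 3.20) in library 2. The intervals of the libraries did not overlap on the first denominator and did on the second. The log2 ratio of library 2 over library 1 was -0.56 (exact 95% interval -0.81 to -0.32) on the first. On the second it was smaller, -0.25 (-0.50 to -0.01), with an interval that still left out 0. Of the 12 entries, 11 had at least 1 count, 7 reached 10 counts in library 1 and 5 reached 10 in library 2. The 5 that did so in both libraries were the 5p arms.

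The 5p arms were all present, and miR-30c-5p had the most counts. This arm, mmu-miR-30c-5p in the table, gave 95 counts in the first library and 68 in the second, 1958 ± 202 CPM on average (SD, n = 2), which placed it 17th and 16th among entries numbered 1000 or below. Its reads can come from hairpins on chromosomes 1 and 4, and the table does not divide them. Among the 5p arms with a sequence, only miR-30c-5p has 2 hairpins. Whether its reads were counted once for each hairpin was not tested, so its lead, rank and family share are uncertain. The arm mmu-miR-30a-5p had 71 and 45 counts, or 1385 ± 261 CPM (SD, n = 2). The arm mmu-miR-30d-5p, at 83 and 31 counts, came to 1331 ± 713 CPM (SD, n = 2). Its neighbour on chromosome 15, miR-30b-5p, had 67 and 27 counts, or 1101 ± 538 CPM (SD, n = 2). The lowest was miR-30e-5p, with 27 counts in each library, or 659 ± 87.3 CPM (SD, n = 2).

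The order was not the same in the libraries. The highest CPM was that of miR-30c-5p in both, with the limit given above for its 2 hairpins. In library 1 miR-30d-5p came next, with 1835 CPM against 1570 for miR-30a-5p, and in library 2 the order of these was turned, with 827 against 1201 CPM. Intervals for counting error overlapped between all neighbours in the order in both libraries except at the lower end of library 1. There miR-30e-5p, at 597 CPM (exact Poisson 95% interval 393 to 869), lay below miR-30b-5p at 1482 CPM (1148 to 1882). In library 2 the same arms both stood at 720 CPM (475 to 1048). The members with a sequence were 22 or 23 bases long and were compared without a correction for length. Of the near-identical arms that differ at C13U, miR-30a-5p was thus the higher in both libraries, at 2.63 and 1.67 times the counts of miR-30e-5p, although how reads matching several members were assigned is not given in the sources used here.

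**Figure D1:**
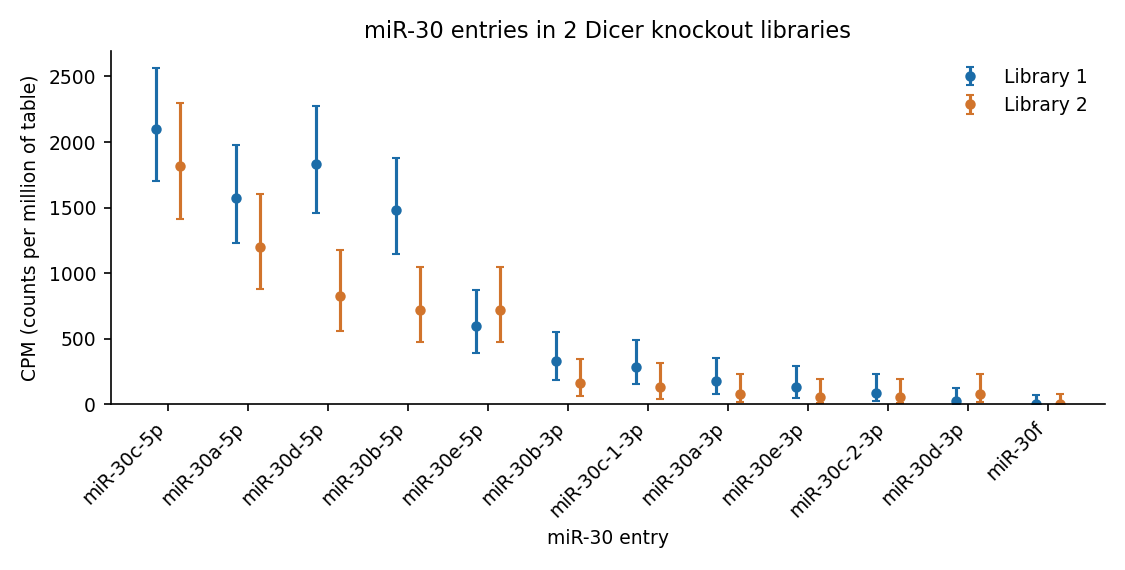
Level of each miR-30 entry in CPM (y axis, linear from 0) in library 1 (blue) and library 2 (orange), ordered by mean; bars are exact Poisson 95% intervals of the counts, and for a count of 0 they end at the limit of 3 counts. The 5 5p arms lie between 597 and 2101 CPM, the 3p arms between 22.1 and 332 CPM, and miR-30f is at 0.

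The 3p arms, which are usually the scarcer strand in this family, were few. They summed to 47 counts in library 1 and 21 in library 2. The highest was miR-30b-3p with 15 and 6 counts, followed by miR-30c-1-3p with 13 and 5. The 3p arms tell the miR-30c hairpins apart, and miR-30c-2-3p had 4 and 2 counts. The arms with the seed UUUCAGU had 8 and 3 counts for miR-30a-3p and 6 and 2 for miR-30e-3p. With 1 and 3 counts, miR-30d-3p was the only 3p arm with more counts in library 2. The entry miR-30f had 0 of 45222 and 0 of 37476 counts, which allows a share of up to 0.00663% of library 1 and 0.00801% of library 2.

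The arms of a hairpin were compared because Dicer normally makes both with the same cut. In the miR-30 family the 5p arm was the more abundant in all 5 hairpins in both libraries. Of the 390 counts of library 1, 343 were 5p, which is 87.9% with a 95% Wilson interval of 84.3 to 90.8. Of the 219 in library 2, 198 were 5p, which is 90.4% (85.8 to 93.6), and the average was 89.2% ± 1.74 (SD, n = 2). The 5p share was highest on average for miR-30d, which led in library 1 with 98.8% (93.6 to 99.8) but in library 2, with 91.2% (77.0 to 97.0), lay below miR-30a and miR-30e. It was lowest on average for miR-30b, with 81.7% (72.0 to 88.6) and 81.8% (65.6 to 91.4), although Mir30b and Mir30d are neighbours. For miR-30a the share was 89.9% (81.3 to 94.8) and 93.8% (83.2 to 97.9). For miR-30c, with both copies merged, it was 84.8% (77.0 to 90.3) and 90.7% (82.0 to 95.4). For miR-30e it was 81.8% (65.6 to 91.4) and 93.1% (78.0 to 98.1). The intervals of all 5 hairpins overlapped between the libraries.

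The same share was computed for every hairpin with both arms listed and at least 10 counts in each library. The median over these 58 hairpins was 82.8% in library 1 and 83.0% in library 2, and 36 had more 5p than 3p counts in both. The medians over the 5 miR-30 hairpins were 84.8% and 91.2%. Fisher's exact test of arm by library, adjusted over the 58 hairpins, passed for 3 of them, a background of 5.17%. None of the 5 miR-30 hairpins passed, nor did any at an unadjusted p below 0.05. Their 3p counts were only 1 to 17 per hairpin in library 1 and 2 to 7 in library 2. A shift in arm use could therefore have been missed, and equal arm use is not shown. The smallest p was that of miR-30d, 0.0715 by Fisher's exact test (two-sided), with a Benjamini-Hochberg adjusted p of 0.724.

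**Figure D2:**
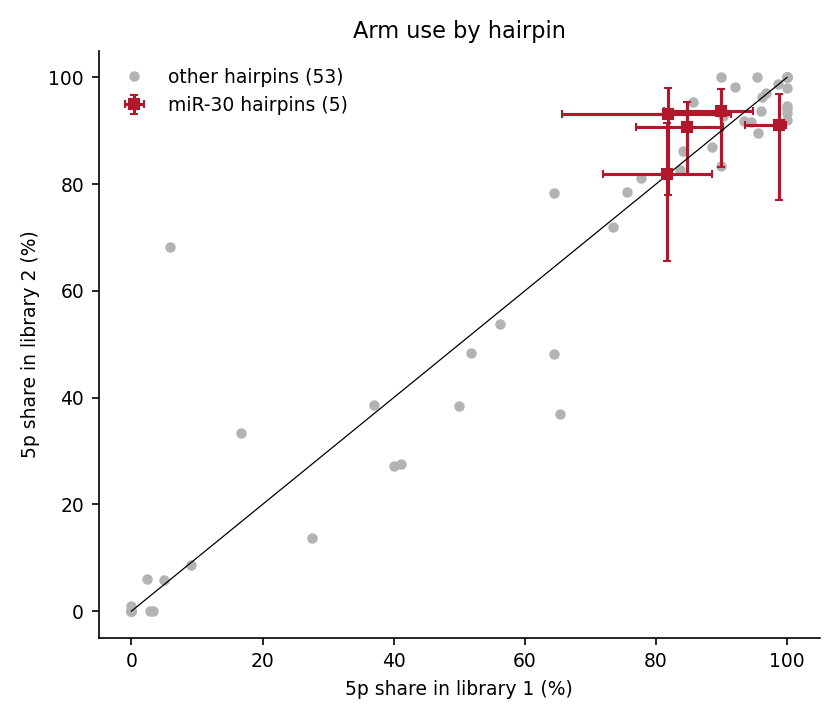
Share of 5p counts in library 1 (x axis, %) and library 2 (y axis, %) for the 58 hairpins with at least 10 counts in each; red squares are the 5 miR-30 hairpins with 95% Wilson intervals, grey points the other 53, and the line marks equal shares. The miR-30 hairpins lie between 81.7% and 98.8% in both libraries, beside many other hairpins with a high 5p share.

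The libraries were then compared entry by entry. This sets 1 library against another of the same genotype and has no replicate check. Of the 12 entries, 8 had the 10 counts in total that the test required, and 7 of these had a lower CPM in library 2. The median log2 ratio of library 2 over library 1 was -1.05 over these 8, against -0.05 over all 129 entries tested, of which 70 were lower in library 2. The 8 include scarce 3p arms, and the summed family stood at -0.56. Entries were called where the adjusted p was below 0.05 and the CPM differed 2-fold or more, and 10 of 129 met this, a background of 7.75%. Of the 4 entries called as higher in library 1, a background of 3.1%, 2 were the 5p arms from chromosome 15. Without the fold minimum the same 2 members were called, beside 25 of the 129 entries in either direction (19.4%) and 13 as higher in library 1 (10.1%).

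The arm miR-30d-5p was 2.22-fold higher in library 1, with a log2 ratio of -1.15 (exact 95% interval -1.79 to -0.54; Fisher's exact test, Benjamini-Hochberg adjusted p = 0.000777). For miR-30b-5p the log2 ratio was -1.04 (-1.74 to -0.38; Fisher's exact test, adjusted p = 0.00825). The 5p arms from chromosomes 1 and 4 were not called. Their log2 ratios were -0.39 for miR-30a-5p (-0.96 to 0.17), -0.21 for miR-30c-5p (-0.68 to 0.25) and 0.27 for miR-30e-5p (-0.55 to 1.10), with adjusted p-values of 0.412, 0.684 and 0.761 by Fisher's exact test. The 3 tested 3p arms had log2 ratios close to those of the called arms, -1.05 for miR-30b-3p, -1.11 for miR-30c-1-3p and -1.14 for miR-30a-3p. With 11 to 21 counts in total their intervals reached from -3.69 to 0.91, and none was called. Summed, the 6 3p arms had a log2 ratio of -0.89 (-1.71 to -0.12) and the 5 5p arms one of -0.52 (-0.78 to -0.27).

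**Figure D3:**
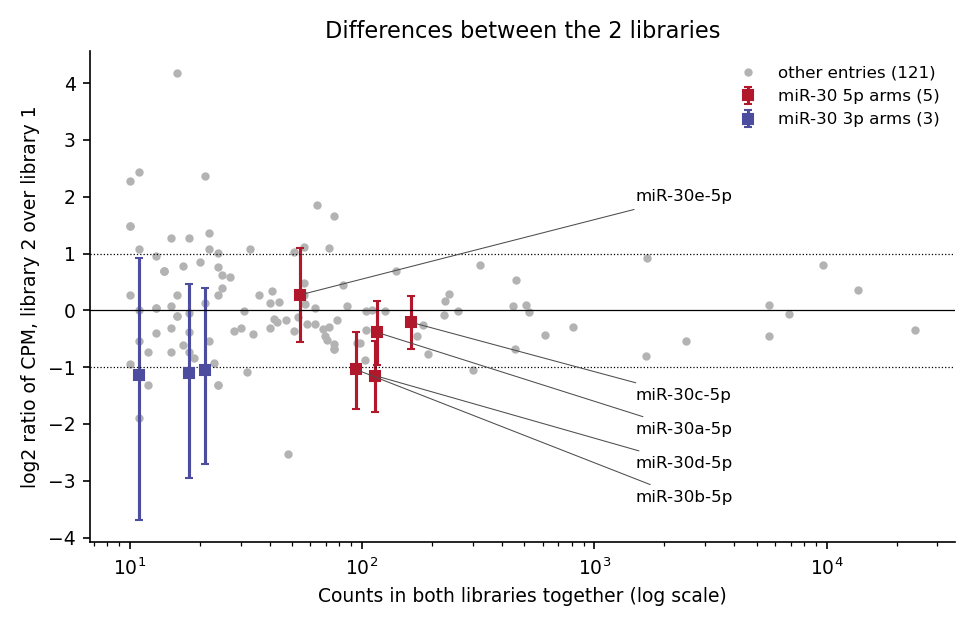
Log2 ratio of CPM, library 2 over library 1 (y axis), against counts in both libraries (x axis, log scale) for the 129 entries tested; red squares are miR-30 5p arms and blue squares 3p arms, with exact 95% intervals, and dotted lines mark 2-fold. The arms miR-30b-5p and miR-30d-5p lie below -1 with intervals clear of 0, while the intervals of the other miR-30 arms include 0.

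These calls depended on the library scale. When the total over entries numbered 1000 or below was the scale, every log2 ratio moved by 0.31 towards library 2 and neither arm was called. Over all 112 entries tested on that scale 10 were called (8.93%), and of the 8 members 0. On that scale miR-30d-5p was at -0.84 (Fisher's exact test, adjusted p = 0.0344) and miR-30b-5p at -0.73 (Fisher's exact test, adjusted p = 0.118), and miR-30c-5p changed sign, to 0.10.

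The make-up of the family does not depend on the scale. The pair miR-30b-5p and miR-30d-5p held 150 of the 390 family counts in library 1, or 38.5% (95% Wilson interval 33.8 to 43.4), and 58 of 219 in library 2, or 26.5% (21.1 to 32.7). The arms miR-30a-5p, miR-30c-5p and miR-30e-5p held 49.5% (44.6 to 54.4) and 63.9% (57.4 to 70.0). The intervals of neither set overlapped between the libraries. The sets follow the chromosomes but were formed with the ratios known, so these shares are a description. Singly, miR-30d-5p went from 21.3% of the family in library 1 to 14.2% in library 2, miR-30b-5p from 17.2% to 12.3%, miR-30c-5p from 24.4% to 31.1%, miR-30a-5p from 18.2% to 20.5% and miR-30e-5p from 6.92% to 12.3%. Each of these 5 shares had intervals that overlapped between the libraries, which is not a test of a difference, and none was run on them.

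**Figure D4:**
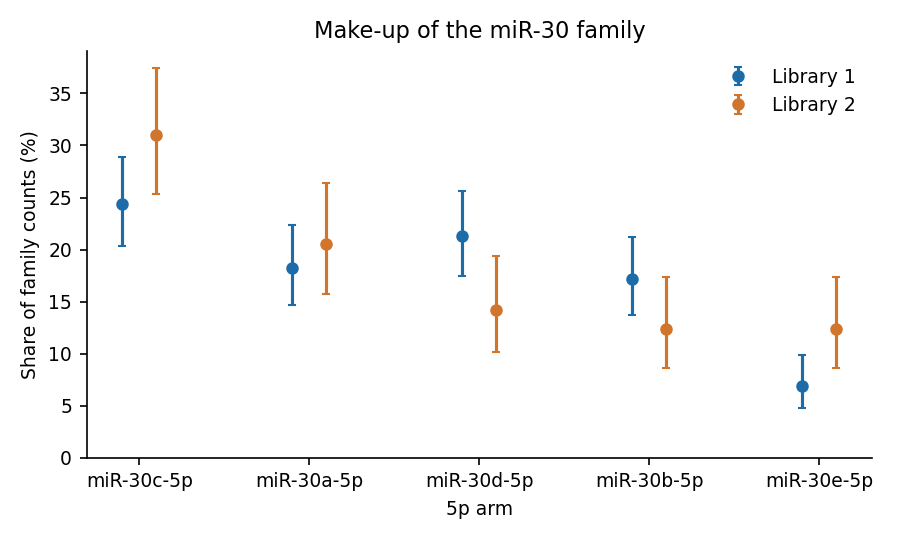
Share of all miR-30 counts held by each 5p arm (y axis, %) in library 1 (blue, 390 counts) and library 2 (orange, 219 counts), with 95% Wilson intervals. The arms miR-30d-5p and miR-30b-5p sit lower in library 2, and miR-30c-5p, miR-30a-5p and miR-30e-5p sit higher. Each has overlapping intervals, which is not a test of a difference.

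Lists of miRNAs typical of other cells were set beside these differences. The list for neurons had a higher share in library 1, with 29 counts (0.0641%) against 10 (0.0267%). Of its 7 entries 5 had a count: miR-9-5p had 18 and 6, miR-124-5p had 9 and 0, and the remaining 3 had 3 counts or fewer. The other arm of that hairpin on the list, miR-124-3p, was at 0 in both. Of the neuron list only miR-9-5p had enough counts to be tested, and it was not called (Fisher's exact test, adjusted p = 0.219). The lists for fibroblasts, with 7 and 16 counts over 10 entries, and for blood cells, with 13 and 12 over 9, did not have a lower share in library 2. Their part in the miR-30 differences was not tested.

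The 3 entries outside the family whose log2 ratio was nearest to that of the summed family, -0.56, were taken from 56 with at least 50 counts. They were miR-191-5p at -0.57 (61 and 34 counts), miR-183-3p at -0.58 (63 and 35 counts) and miR-183-5p at -0.54 (1573 and 897 counts). The likeness rests on 1 ratio between 2 libraries.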

How the data were processed

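The authors deposited 1 table of raw counts, in whole numbers, for each mature miRNA, and its 2 columns carry the titles of the samples. Total RNA went into TruSeq small RNA libraries, per the labels' protocols, and was sequenced on a HiSeq2000, per the series' design text. The submitters' processing notes name cutadapt, STAR, featureCounts and mm10. Their versions and settings, the miRBase release and the treatment of reads that match several miRNAs are not given in the sources used here. Counts of miR-30 arms that differ by 1 base, or that have 2 hairpins, are therefore uncertain. In other families, miR-467a-3p had 60 and 80 counts beside 6 and 8 for each of miR-467c-3p, miR-467d-3p and miR-467e-3p. Likewise, miR-669a-5p had 300 and 156 beside 50 and 26 for miR-669p-5p. Whether reads were counted once for each matching copy was not tested. Repeated counting would raise miR-30c-5p and make its intervals and p-values too narrow. No molecular identifiers are mentioned, so intervals and limits cover counting error only.

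CPM was computed on the table's total. A count of 0 was read as up to 3 counts. Detection needed 10 counts in a library. Wilson, exact Poisson and exact binomial intervals have a level of 95%. With 1 library on each side, Fisher's exact test (two-sided) compared each entry having at least 10 counts in total with the rest of its library, and each hairpin's arms between libraries, with Benjamini-Hochberg adjustment over all entries or hairpins tested. The tests were checked on simulated counts with counting error only. The entries changed there had more counts than the 3p arms here and changes larger than the 2-fold minimum. For the arm test, the simulated hairpins had more counts than any miR-30 hairpin, and the changed ones had a large shift in arm use. These checks do not cover smaller changes, scarcer entries or hairpins, or variation between libraries beyond counting error. Every miR-30 entry is named, then entries sharing a seed with one, then the 3 entries nearest in log2 ratio. The members and lists were chosen with earlier results of these data known. RefSeq gave sequences for 1623 of the 1907 entries. Analyses used Python 3.11.15, scipy 1.17.1 and pandas 2.3.3, with edgeR 4.0.16 and DESeq2 1.42.0 for scaling factors only.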

Additional observations from a re-analysis of the deposited data

How the results depend on the processing

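The number of members called between the libraries, 2 as reported, was 1 under TMM factors and 1 on the total without the 10 most abundant entries (miR-30d-5p in both), 0 on the total over entries numbered 1000 or below, and 0 with a 4-fold minimum. It stayed at 2, the same arms, with DESeq2 size factors, without a count filter, with at least 20 counts and without a fold minimum. Over all entries tested, 6.98% were called under TMM factors and 6.72% without the 10 most abundant entries. The share was 8.93% on entries numbered 1000 or below and 2.33% with a 4-fold minimum. It was 7.75% with DESeq2 size factors, 2.08% without a count filter, 9.78% with at least 20 counts and 19.4% without a fold minimum. Of 54 ratios of single members under these scales and filters and with a pseudocount of 10 CPM, 49 kept direction and call, 1 reversed and 4 lost the call (miR-30b-5p on 3 scales, miR-30d-5p on 1). The count filters leave a ratio as it is and a pseudocount cannot change its sign, so no reversal was possible there. The adjusted p under the pseudocount was that of the unaltered counts. Only miR-30b-5p and miR-30d-5p had a call to lose. For miR-30b-5p, under TMM factors and without the 10 most abundant entries, the ratio only slipped under 2-fold, from -1.04 to -0.999 and -0.989, with the adjusted p still passed (Fisher's exact test, 0.0104 and 0.0198). The ratio of miR-30c-5p reversed, to 0.0961, on the total over entries numbered 1000 or below. The mean family share rose by construction, from 0.723% to 1.03% without the most abundant entry in the denominator and to 3.08% over entries numbered 1000 or below. Members detected in both libraries numbered 8 at a minimum of 3 counts and 5 at 20. With at least 100 counts, 1 of the 3 entries nearest in ratio, miR-183-5p, was named again. Without 1 library, the family share ranged from 0.584% to 0.862%, its 5p share from 87.9% to 90.4% and the share of miR-30c-5p in the family from 24.4% to 31.1%. Differences between the libraries need both. No paired analysis was possible because both libraries belong to 1 group. Depth limited the comparison to 8 of 12 members, and for the 3p arms the intervals span more than 2-fold.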
